A study of Mus musculus with 4 samples.

Results

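The genes described here encode the cornified envelope and the desmosomal junctions of stratified epithelium: the small proline-rich genes (Sprr), the late cornified envelope genes (Lce), Lor and Ivl, the desmogleins (Dsg), the desmocollins (Dsc), and the plakophilins Pkp1 and Pkp3. They were chosen on an Agilent whole mouse genome array by a rule on gene names that uses no measured value. Earlier results of these data were known when that rule was set. The rule gave 52 probes for 39 genes out of 41174 probes. No probe carried the name Flg, the filaggrin gene. RNA came from whole bones of male C57BL/6 mice aged 35 days, with 1 array each for the maxilla and the mandible (the jaw bones) and for the ilium and the femur (the trunk and limb bones). All 4 groups shared strain, sex and age, and none had been treated or carried an engineered allele. The number of animals behind each array is not given in the sources used here. The bones were taken out whole, and the labels do not say whether teeth, gum, marrow or other soft tissue were removed. The study asked how jaw bones differ in expression from trunk and limb bones.

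The cornified envelope is the cross-linked protein shell that replaces the plasma membrane of keratinocytes as they reach the surface of skin and oral mucosa. Involucrin, loricrin, the small proline-rich proteins and the late cornified envelope proteins are its building blocks, and transglutaminases join them. Desmosomes rivet neighbouring epithelial cells together: desmogleins and desmocollins are cadherins that bridge the gap between cells, and plakophilins, plakoglobin and desmoplakin tie them to keratin filaments. Most genes of these groups are known from epithelia and not from bone matrix cells. Desmosomal cadherins lie side by side in 1 gene cluster, and the envelope genes in another, the epidermal differentiation complex. On the array's design build mm8, the 32 envelope probes lay between 92166211 and 93103369 of chromosome 3. The 18 cadherin probes lay between 20106389 and 20746813 of chromosome 18. Pkp1 lay on chromosome 1 and Pkp3 on chromosome 7.

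Levels are log2 signals relative to the 75th percentile of each array, so that a step of 1 is 2-fold, and a level near -8 is a spot without measurable signal. A probe counted as well above background where the scanner software set that mark. The share of spots so marked was 72.8% to 75.5% per array, and 0 spots were saturated. Osteoblast and osteocyte markers were present on every array: all 6 of 6 genes were well above background in each bone, with a summed level of 8.59 in maxilla, 8.60 in mandible, 8.26 in ilium and 8.02 in femur. Jaw bones were set against trunk and limb bones with limma over all 31116 probes well above background on at least 2 arrays, so the bone was the unit (n = 2 per class), and p-values were adjusted by the Benjamini-Hochberg method. They measure the spread between bones of a class and not between animals. Where bones had no measurable signal, that spread is one of dim spots and not of expression. Beside the test, a rule of size called a probe separated when its values in the classes did not overlap and the gap between them was 1 or more.

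Of the 52 probes, 39 were well above background in maxilla and 29 in mandible, against 17 in ilium and 21 in femur. In 19 probes at least 1 jaw bone had measurable signal while the ilium and the femur both had none. In bulk RNA of whole bones, fewer cells of a type and less RNA per cell cannot be told apart. Of the 31 member probes tested, 9 were higher in jaw bones at an adjusted limma p below 0.05, belonging to 6 genes (Dsg2, Dsg1a, Pkp1, Pkp3, Lor and Lce3f), against a background of 4.92% of all tested probes. None was lower, against 7.89% of all tested probes, and at an unadjusted p below 0.05 there were 15 higher and 0 lower, against 15.6% and 19.5% of all tested probes. By the rule of size, 15 probes of 9 genes were higher in jaw bones against a background of 8.7%, and none was lower against 9.55%. With bones that lacked measurable signal set to the lowest signal well above background of their array, 13 stayed separated higher and 0 lower, against 8.23% and 8.85%. The 6 calls for Dsg2, Dsg1a and Lce3f, and 9 of the 15 by size, were of probes without measurable signal in ilium and femur. The SE and p-values of these 6 calls therefore take the trunk and limb spread from dim spots. Because 9 of the 31 entered the test through the jaw bones alone, these counts describe the genes and are not a sample of all 52 probes. A fit with 1 bone left out has 1 array in that class and takes its error from the other class alone. With either the ilium or the femur left out, no probe of the array passed the adjusted threshold, and the member count was 0. Without the maxilla 14 were called higher and 2 lower, against 14.3% and 16% of all tested probes, and without the mandible 19 were higher and 0 lower, against 19% and 20.7%.

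Among the desmogleins, Dsg2, which is found in most epithelia with desmosomes, gave the largest difference. Its probe A_52_P601757 had levels of 0.38 in maxilla and -1.67 in mandible, against -8.46 in ilium and -8.60 in femur. The difference was 7.89 ± 0.76 (log2, SE, n = 2 bones per class) with an adjusted p of 0.0306. As the ilium and femur had only a bound, the jaw level was at least 57.8-fold higher. Here and below, such a bound takes the lowest signal well above background on each dim array, or the probe's own signal if higher. The 3 other Dsg2 probes with signal pointed the same way: A_52_P559779 differed by 5.06 ± 0.77 (adjusted p = 0.0381), A_51_P249848 by 4.27 ± 0.73 (adjusted p = 0.0443) and A_52_P88091 by 4.20 ± 0.69 (adjusted p = 0.0424). These too had no measurable signal in ilium and femur, and the jaw level was at least 7.57-fold, 16.0-fold and 4.52-fold higher in the same order. On each of them both jaw bones lay above both other bones, and maxilla lay above mandible by 1.84 to 2.06. The fifth Dsg2 probe, A_52_P96159, was not well above background on any array. Under normexp background correction, the first probe kept its call at 3.64 ± 0.66, and the other 3 lost theirs. Those 3 also missed the threshold in the limma fit without the filter on dim probes. Their adjusted p there was 0.0534, 0.0615 and 0.0592 in the order above, while the first probe passed at 0.0473.

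Dsg1a, a desmoglein of the upper layers of skin, ran the other way within the jaw. It had levels of -4.83 in maxilla and -2.97 in mandible, against -8.51 in ilium and -8.00 in femur. The difference was 4.36 ± 0.72 with an adjusted p of 0.0424, the jaw level being at least 6.04-fold higher. The call did not hold under normexp correction (1.33 ± 0.29, adjusted p = 0.0613) or quantile normalization (4.13 ± 0.85, adjusted p = 0.0619). Nor did it hold in the limma fit without the filter on dim probes (adjusted p = 0.0593). Of its close relatives, Dsg1b reached measurable signal with 1 of 3 probes and in mandible alone (-5.89), and Dsg1c reached it nowhere. Dsg3, the desmoglein of the lower layers and of oral mucosa, was measurable with 1 of 2 probes and in maxilla alone, at -5.30, at least 2.14-fold above mandible. Dsg4, known from the hair shaft, was not well above background in any bone.

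The desmocollins divided by gene. Dsc2, the member present in most desmosome-bearing tissues, was measurable in both jaw bones with all 3 of its probes. On A_52_P252931 it had levels of -2.68 in maxilla and -5.53 in mandible, against -8.28 in ilium and -8.42 in femur. That difference of 4.25 ± 1.05 missed the threshold (adjusted p = 0.0775), as did those of A_51_P158037 (3.87 ± 1.08, adjusted p = 0.0946) and A_52_P157158 (3.08 ± 1.06, adjusted p = 0.134). The jaw level was at least 5.24-fold higher on A_52_P252931 and at least 7.29-fold higher on A_52_P157158, since neither the ilium nor the femur had measurable signal there. With those bones at the lowest measurable signal, the gap between the classes was 0.93 on A_52_P252931, 1.39 on A_52_P157158 and 2.31 on A_51_P158037. The jaw bones themselves lay 2.86 to 2.95 apart. Dsc1, of the upper epidermis, and Dsc3, of the lower layers, were not well above background on any array.

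Plakophilins were measurable in all 4 bones. Pkp1, which strengthens desmosomes in the upper layers of stratified epithelium, had levels of 0.84 in maxilla and 2.14 in mandible, against -4.99 in ilium and -5.77 in femur. The difference of 6.87 ± 0.58 (adjusted p = 0.0306) was 117-fold, and like Dsg1a it was higher in mandible than in maxilla. Pkp3, a plakophilin of nearly all desmosomes, had levels of 2.01 in maxilla and 1.89 in mandible, against 0.31 in ilium and 0.52 in femur. Its difference was 1.53 ± 0.21, or 2.89-fold (adjusted p = 0.0341), and its jaw bones lay within 0.12 of each other, where those of every other called member lay more than 1 apart. With the deposited value table in place of the scanner values, Pkp3 had an adjusted p of 0.0526. The limma fit without the filter on dim probes gave it an adjusted p of 0.0519.

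**Figure D1:**
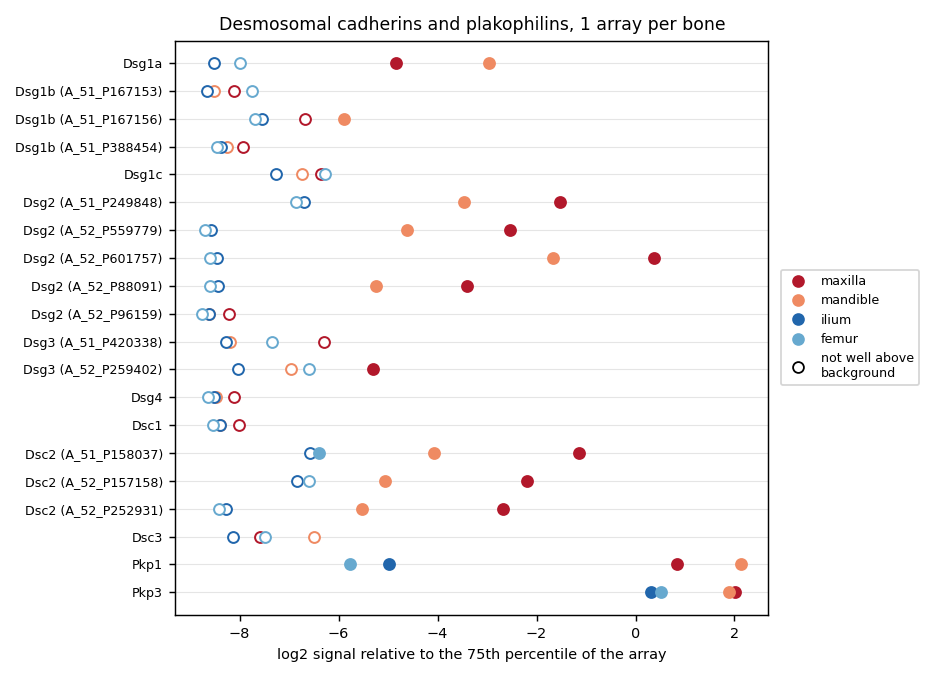
Each row is a probe of a desmoglein, desmocollin or plakophilin, and each point is 1 array, placed by its log2 signal relative to the array's 75th percentile, with jaw bones in red tones and trunk and limb bones in blue tones. Open points are not well above background. Dsg1a, Dsc2, Pkp1, Pkp3 and 4 of 5 Dsg2 probes have both jaw bones to the right of ilium and femur, while Dsg1c, Dsg4, Dsc1 and Dsc3 have open points only.

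Of the single envelope genes, Lor encodes loricrin, the main envelope protein of the epidermis. It had levels of 1.14 in maxilla and -0.52 in mandible, against -3.00 in ilium and -3.21 in femur, and was measurable in all of them. The difference was 3.42 ± 0.63, or 10.7-fold (adjusted p = 0.0494), just inside the threshold. It was 3.30 ± 0.65 under quantile normalization, where the adjusted p was 0.059, and the unfiltered fit gave an adjusted p of 0.0682. Ivl, which encodes involucrin, an early envelope protein, was not well above background in any bone.

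Of the late cornified envelope genes, Lce3f was called. It belongs to the Lce3 subgroup, known in human skin to be raised when the barrier is injured. Of that subgroup 1 of 3 probes passed the test, against 4.92% of all tested probes called higher. Lce3f had levels of -0.85 in maxilla and -3.04 in mandible, against -8.31 in ilium and -8.44 in femur. The difference was 6.43 ± 0.81 (adjusted p = 0.0319), at least 23.4-fold higher in jaw bones, though under normexp correction it was 2.45 ± 0.63 with an adjusted p of 0.0817. The probes of Lce3c, A_51_P373393 and A_51_P373390, differed by 3.56 ± 0.68 and 3.19 ± 0.68, with both jaw bones above both others. Their adjusted p of 0.0517 and 0.061 missed the threshold, and median centring brought them inside it at 0.0408 and 0.0486.

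The Lce1 genes form a subgroup expressed in skin, and whether they differed from the Lce3 genes was not tested. All 14 probes of the 12 genes (Lce1a1, Lce1a2, Lce1b, Lce1c, Lce1d, Lce1e, Lce1f, Lce1g, Lce1h, Lce1i, Lce1l and Lce1m) were well above background in maxilla, against 6 in mandible, 6 in ilium and 7 in femur. None of the 8 Lce1 probes tested was called by limma, none had an unadjusted p below 0.05, and none was separated by size. Of all tested probes, limma called 4.92% higher and 7.89% lower, and 15.6% and 19.5% had an unadjusted p below 0.05. By size, 8.7% were separated higher and 9.55% lower. Lce1d came nearest, with levels of -3.04 in maxilla and -5.75 in mandible, against -5.90 in ilium and -7.07 in femur (2.09 ± 1.08, adjusted p = 0.254). Lce1l had levels of -2.56 in maxilla and -3.67 in mandible, against -3.37 in ilium and -2.71 in femur, so the classes overlapped. Lce1b (A_51_P125351), Lce1g (A_51_P458474), Lce1a1 and Lce1m were likewise measurable in every bone, and their differences lay between -0.32 and 0.11. The second probes of Lce1b (A_51_P125345) and Lce1g (A_52_P630463) did not report like these. In femur they had -6.57 and -8.33, without measurable signal, against -1.88 and -5.15 on the first probes. Why the probes of a gene differed was not tested.

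In Lce1c, Lce1e, Lce1f and Lce1h, and on the second probes of Lce1b and Lce1g, the maxilla alone had measurable signal. Lce1f, for example, stood at -4.61 in maxilla and -7.25 in mandible, against -8.74 in ilium and -8.81 in femur, which is at least 3.45-fold above mandible. Lce1a2 and Lce1i were measurable in maxilla and femur and not in mandible or ilium. Lce1a2 had levels of -4.62 in maxilla and -6.73 in mandible, against -7.39 in ilium and -5.56 in femur. Lce1i had -3.78 in maxilla and -6.31 in mandible, against -6.78 in ilium and -5.24 in femur. For both genes the femur therefore lay between the jaw bones.

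None of the 9 tested probes of the small proline-rich genes (13 probes of 12 genes in all) was called by limma. Of all tested probes, 4.92% were called higher and 7.89% lower, so few calls would be looked for among 9. Only Sprr2d had an unadjusted p below 0.05, and it alone was separated by size. It had levels of -3.66 in maxilla and -6.06 in mandible, against -8.48 in ilium and -7.52 in femur (3.14 ± 0.95, adjusted p = 0.108), at least 3.11-fold higher in jaw bones. Against the lowest measurable signal in ilium, however, its mandible level left a gap of 0.40 only. Within the jaw, 7 of the 10 Sprr probes measurable there were at least 2-fold higher in maxilla, with 1 array each and no test. The background was 14.8% of the 31820 probes measurable in either jaw bone. Sprr2f had a level of 0.05 in maxilla and no measurable signal elsewhere, with -6.95 in mandible, -8.45 in ilium and -7.65 in femur. Maxilla was at least 87.0-fold above mandible. Sprr3, a gene of oral and oesophageal lining, stood at -3.39 in maxilla and -7.12 in mandible, against -6.81 in ilium and -6.24 in femur, and was at least 8.03-fold above mandible.

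Sprr1a, a gene induced by stress and injury in many tissues, was measurable everywhere, with levels of 0.86 in maxilla and -4.61 in mandible, against -2.77 in ilium and -3.01 in femur. The maxilla was thus the highest and the mandible the lowest of the 4, with 5.48 between them, and the class difference was 1.02 ± 1.98 (adjusted p = 0.743). Without the maxilla the difference turned to -1.72, and without the mandible it was 3.75. Each of these rests on 1 jaw array, so no spread between jaw bones enters. Sprr4 was the only member measurable in ilium and femur and in neither jaw bone, with levels of -6.54 in maxilla and -7.29 in mandible, against -6.18 in ilium and -6.38 in femur. Its difference of -0.63 ± 0.34 did not pass (adjusted p = 0.264), and without the maxilla it was -1.01.

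Other Sprr2 genes had signal in every bone and small differences between classes. Sprr2b had levels of -0.16 in maxilla and -0.91 in mandible, against -0.84 in ilium and -0.85 in femur, and Sprr2k had -1.28 in maxilla and -1.70 in mandible, against -1.39 in ilium and -1.29 in femur. Sprr2e had -0.57 in maxilla and -2.21 in mandible, against -2.16 in ilium and -2.31 in femur, so that only the maxilla stood out. Sprr2g had -2.06 in maxilla and -3.37 in mandible, against -2.70 in ilium and -2.47 in femur. The probes of Sprr2a did not report alike. A_52_P18887 had -2.62 in maxilla and -5.39 in mandible, against -5.61 in ilium and -4.72 in femur (1.16 ± 1.06, adjusted p = 0.485). A_52_P981257 had 5.89 in maxilla and 5.50 in mandible, against 5.30 in ilium and 5.28 in femur (0.41 ± 0.23, adjusted p = 0.293), a signal of 45089 to 51785 on every array. Sprr2 genes are close copies of one another, and how far a probe takes up RNA of another copy was not tested. Sprr1b and Sprr2h were not well above background on any array.

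**Figure D2:**
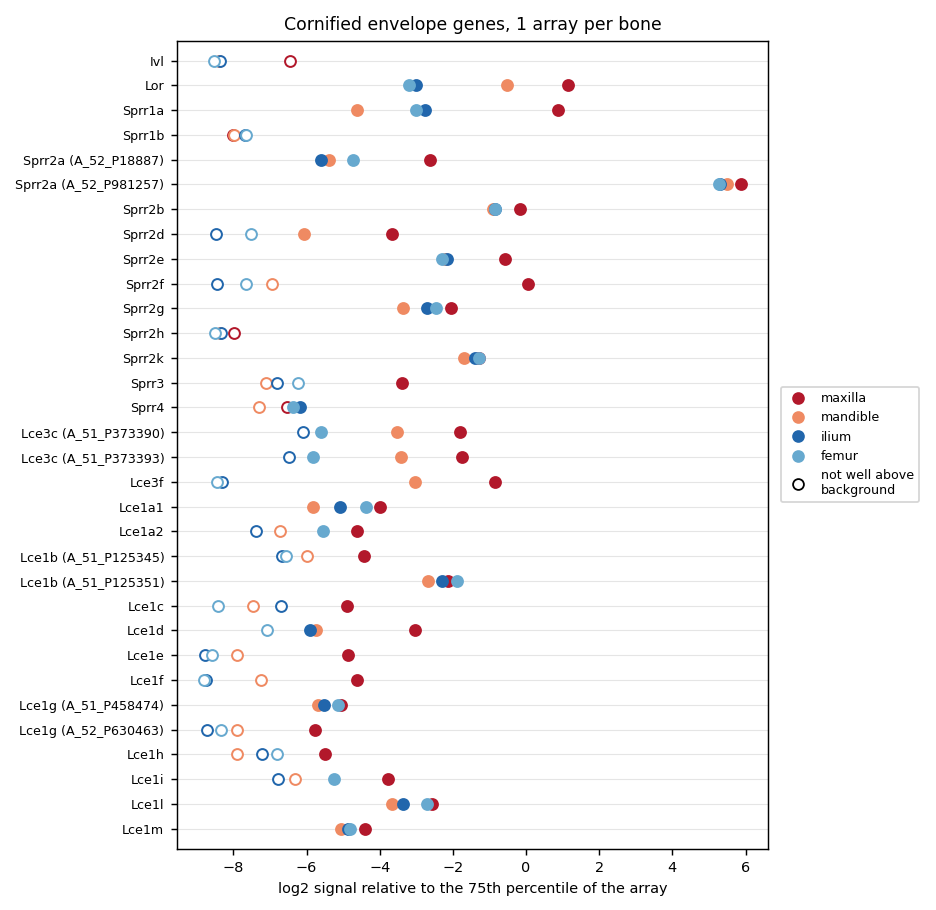
Each row is a probe of an envelope gene and each point 1 array, placed by its log2 signal relative to the array's 75th percentile, with jaw bones in red tones and trunk and limb bones in blue tones. Open points are not well above background. Lor, Lce3c, Lce3f and Sprr2d have both jaw bones to the right, Sprr2f, Sprr3 and Lce1f have the maxilla alone, and Sprr2b, Sprr2k and Lce1m have all 4 bones close together.

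**Figure D3:**
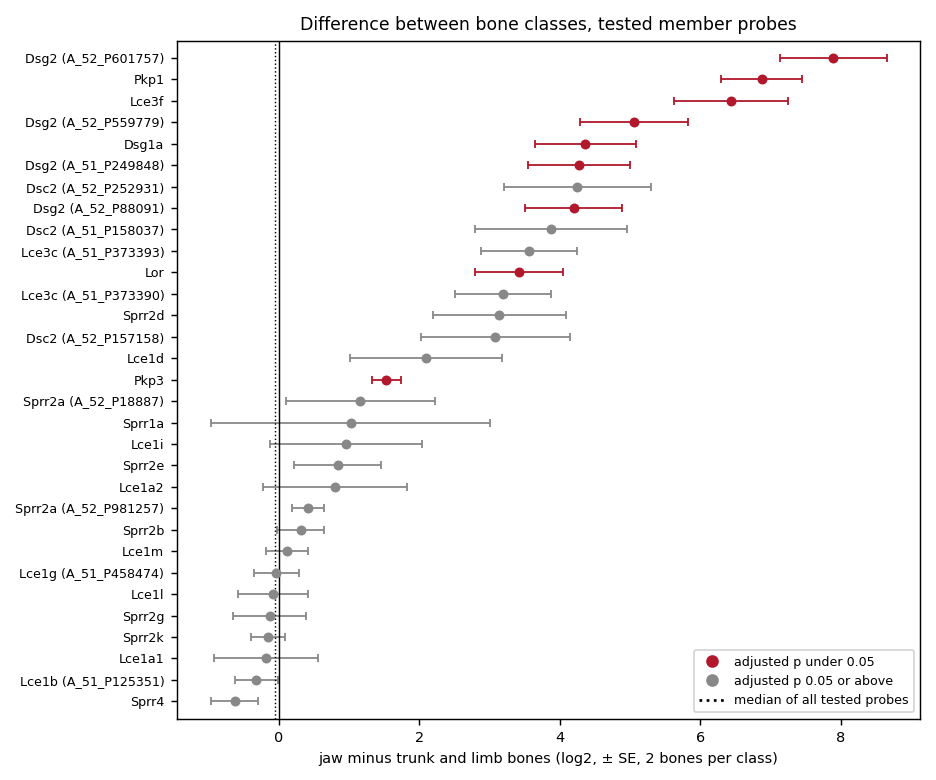
Points give the level in jaw bones minus that in trunk and limb bones (log2) for the 31 member probes tested, and bars are ± 1 SE from limma with 2 bones per class. Red marks an adjusted p under 0.05, and the dotted line is the median of all tested probes, -0.05. Desmosomal cadherins, Pkp1 and the Lce3 genes fill the upper end, and most Lce1 and Sprr2 probes lie near 0.

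The sequences just before the transcription start are shown for the tested envelope genes that were called or separated between the classes: Lce3f, Lce3c, Lor and Sprr2d. Sequences are from RefSeq on build GRCm38.p6, 5′ to 3′ on the strand of the gene, and cover the 200 bases before the start. They are chr3:92992017-92992216 for Lce3f (plus strand), chr3:92944286-92944485 for Lce3c (plus strand), chr3:92083143-92083342 for Lor (minus strand) and chr3:92338940-92339139 for Sprr2d (plus strand). In Lce3f and Lce3c, capitals mark the longest run of bases that the pair shared, 18 bases long and starting 52 bases before the start in both. In Lor and Sprr2d, capitals mark TATAAA, the TATA box core, and TGANTCA, the AP-1 motif.
Lce3f: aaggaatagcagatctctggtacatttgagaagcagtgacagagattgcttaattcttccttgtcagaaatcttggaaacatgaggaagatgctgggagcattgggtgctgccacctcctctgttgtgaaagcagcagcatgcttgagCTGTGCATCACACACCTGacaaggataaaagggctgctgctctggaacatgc
Lce3c: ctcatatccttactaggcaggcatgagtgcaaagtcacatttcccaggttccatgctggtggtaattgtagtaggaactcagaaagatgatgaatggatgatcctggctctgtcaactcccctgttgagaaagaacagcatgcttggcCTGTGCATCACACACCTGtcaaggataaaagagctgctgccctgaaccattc
Lor: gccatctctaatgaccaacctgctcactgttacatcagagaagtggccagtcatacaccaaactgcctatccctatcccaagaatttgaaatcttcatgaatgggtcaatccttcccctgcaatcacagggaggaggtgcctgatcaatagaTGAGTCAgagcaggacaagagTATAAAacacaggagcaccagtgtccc
Sprr2d: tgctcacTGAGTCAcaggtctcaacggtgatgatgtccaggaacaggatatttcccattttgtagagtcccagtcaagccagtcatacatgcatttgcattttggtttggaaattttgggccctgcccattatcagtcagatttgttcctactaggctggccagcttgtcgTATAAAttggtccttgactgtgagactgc

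Over the last 100 bases, Lce3f and Lce3c were identical at 66 positions without gaps. The promoter table held 25 of the 39 member genes. Of 3 motifs searched on both strands of the 200 bases, TATAAA was found in 13 of the 25 promoters, against 9.96% of all 32851 promoters in the table. TGANTCA was found in 10, against 5.48%, and AGGAAG, the core bound by ETS factors, in 10, against 24.7%. The 10 with TGANTCA were Lor, Ivl, Sprr1a, Sprr1b and 6 Sprr2 genes, and no Lce promoter held it in this window. Genes holding it differed in their levels: Lor was called in jaw bones, Sprr2f was measurable in maxilla alone, and Ivl and Sprr2h nowhere. Neighbouring members resemble each other in sequence, so the promoters are not independent, and a match is a description of letters only.

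Within the jaw, most members were higher in maxilla. Of the 40 probes well above background in at least 1 jaw bone, 30 were at least 2-fold higher in maxilla, against a background of 14.8% of 31820 probes. The only members lower in maxilla by as much were Dsg1a and Pkp1, against a background of 8.35%. Each bone had 1 array, so this carries no test. At 4-fold, 19 were higher in maxilla and 0 lower, against backgrounds of 7.95% and 2.26%. The median difference over the 40 was 1.90, against -0.06 over all probes measurable in either bone. The 11 members without measurable signal on any array spread from -1.09 (Dsc3) to 1.95 (Ivl) in the same difference. Between ilium and femur, of 22 measurable members, Lce1d was higher in ilium by the 2-fold rule (background 2.13%), and Lce1a2 and Lce1i were lower (background 2.33%). In each of them the lower bone had no measurable signal, so the fold rests on a dim spot and is no bound.

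**Figure D4:**
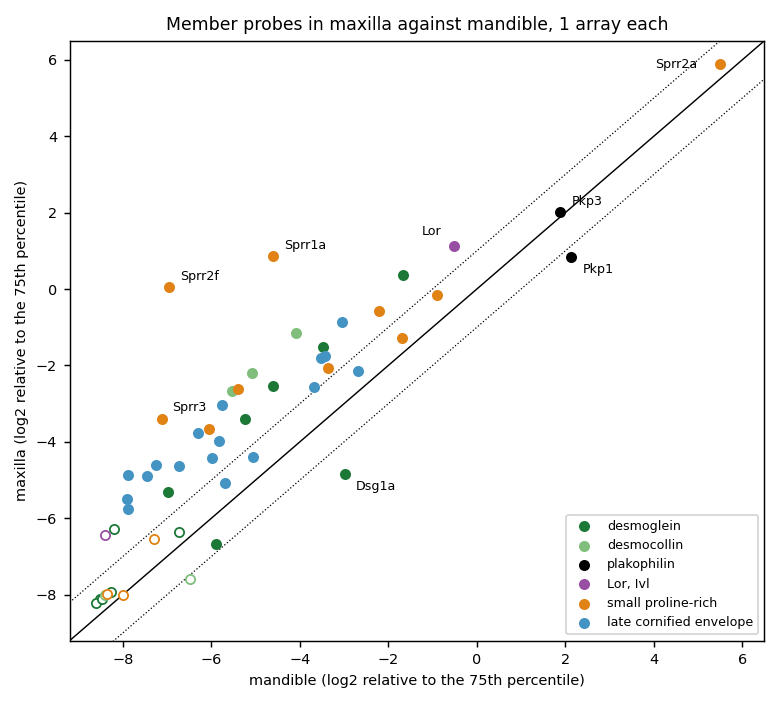
Each point is a member probe, placed by its log2 level in mandible (x axis) and in maxilla (y axis), both relative to the 75th percentile, with 1 array each and colours for gene families. The solid line is equality, dotted lines are 2-fold, and open points lack measurable signal in both jaw bones. Sprr2f, Sprr1a and Sprr3 lie farthest above the line, and Dsg1a and Pkp1 lie below it.

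Other genes of the same machinery were read from 4 lists, beside the same backgrounds of 4.92% called higher and 7.89% called lower over all tested probes. Of the 5 other desmosome parts, 4 were higher in jaw bones and 0 lower, with a median difference of 2.07 against -0.05 over all tested probes. They were Dsp, the desmoplakin that binds keratin (6.27 ± 0.53), Perp, a membrane protein of desmosomes (6.23 ± 0.22), Pkp4 (2.07 ± 0.22), each with an adjusted p of 0.0306, and Jup, which encodes plakoglobin (1.31 ± 0.24, adjusted p = 0.0485). Among 11 tested genes for other envelope and late differentiation proteins, 4 were higher and 0 lower, with a median of 3.11. The called genes were Evpl (envoplakin, 4.49 ± 0.39) and Ppl (periplakin, 3.66 ± 0.63), which form the scaffold of the envelope, together with Lgals7 (galectin-7, 4.47 ± 0.21) and Tchh (trichohyalin, 2.88 ± 0.23). Their adjusted p was 0.0306, and for Ppl 0.0449.

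Of 9 tested genes that cross-link or process the envelope, 1 was higher and 0 lower, with a median of 0.64. The called gene was St14, which encodes the protease matriptase (3.20 ± 0.47, adjusted p = 0.0368). Tgm1, the transglutaminase of keratinocytes, had levels of -1.40 in maxilla and 1.52 in mandible, against -2.81 in ilium and -2.42 in femur, and did not pass (2.67 ± 1.08, adjusted p = 0.175). Asprv1, a protease of the upper epidermis, differed by -1.99 ± 0.38 (adjusted p = 0.0529). Spink5, a protease inhibitor, was measurable in maxilla alone, at -0.36. Of 12 tested regulators of squamous differentiation, 3 were higher and 0 lower, with a median of 1.72. Among them were Trp63 (6.30 ± 0.47, adjusted p = 0.0306) and Zfp750 (4.92 ± 0.62, adjusted p = 0.0319). Zfp750 lacked measurable signal in ilium and femur and was at least 30.2-fold higher. The regulator Grhl2 differed by 5.63 ± 1.14 (adjusted p = 0.0571).

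Markers of some epithelia moved with these differences, while those of others did so only in part. Their part in the differences was not tested. Beside the counts below, limma called 4.92% of all tested probes higher and 7.89% lower. All 5 basal epithelial markers were called higher in jaw bones, 1 of them (Krt15) without measurable signal in ilium and femur, with a summed level of 5.88 in maxilla and 6.42 in mandible, against -0.58 in ilium and -0.72 in femur. Enamel epithelium, the epithelium of the growing tooth, summed to 6.42 in maxilla and 7.72 in mandible, against -1.69 in ilium and -2.41 in femur, with 5 of 7 genes called higher, 3 of them without measurable signal in ilium and femur. The oral lining keratins summed to 1.07 in maxilla and 0.57 in mandible, against -2.99 in ilium and -4.31 in femur, with 1 of 2 tested genes called. That gene, Krt13, had -0.02 in maxilla and 0.54 in mandible, nearly all of the mandible sum. Krt76 had -0.30 in maxilla and -5.51 in mandible. Krt4 had -1.71 in maxilla and no measurable signal in mandible (-7.34). Epidermal suprabasal keratins summed to 0.26 in maxilla and 0.36 in mandible, against -0.91 in ilium and -0.78 in femur, with 1 of 2 tested genes called higher. That gene was Krt10 (1.46 ± 0.23, adjusted p = 0.0399), while Krt1 differed by -0.85 ± 0.78 (adjusted p = 0.487) and Krt2 was measurable in maxilla alone. Wound and appendage keratins summed to 3.21 in maxilla and 4.56 in mandible, against -2.25 in ilium and -2.19 in femur, with 1 of 4 called higher. The called gene, Krt17, stood at 2.66 in maxilla and 4.55 in mandible, so it made up nearly all of the mandible sum. Krt6a, Krt6b and Krt16 ran the other way within the jaw. They had 0.51, -0.17 and -0.70 in maxilla, against -3.61, -5.37 and -3.86 in mandible. Hair genes summed to -1.90 in maxilla and -0.07 in mandible, against -1.70 in ilium and -1.54 in femur, with 1 of 5 tested genes called higher, Krt25, which lacked measurable signal in ilium and femur. Krt27 differed by 4.62 ± 1.14 without a call (adjusted p = 0.0774). Lower without a call were Krt86 (-1.89 ± 0.46, adjusted p = 0.0768) and Padi3 (-0.86 ± 0.77, adjusted p = 0.475).

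Most markers of lining and glandular epithelium moved with the difference between the jaw bones, and their part was not tested. As background for the counts below, limma called 4.92% of all tested probes higher and 7.89% lower. At an unadjusted p below 0.05 the shares were 15.6% and 19.5%. Respiratory and salivary secretory genes summed to 8.58 in maxilla and -1.57 in mandible, against -1.33 in ilium and -2.68 in femur, with 0 of 5 tested genes called between the classes by limma and 0 at an unadjusted p below 0.05. The highest of them in maxilla were Bpifa1 (7.33) and Reg3g (7.23). Scgb1a1 went against the sum, with -4.49 in maxilla and -4.66 in mandible, against -4.62 in ilium and -3.06 in femur. Simple epithelial markers summed to 7.33 in maxilla and 2.95 in mandible, against -0.77 in ilium and -0.49 in femur, with 1 of 5 called higher. Marrow and muscle markers ran lower in jaw bones. Called lower were 3 of 4 erythroid genes, 3 of 3 megakaryocyte genes, 3 of 4 neutrophil genes and 4 of 4 cardiac and slow muscle genes. Of the 6 osteoblast and osteocyte markers, limma called 0 in either direction, and 0 had an unadjusted p below 0.05. Their differences ran from 0.22 (Col1a1) to 1.33 (Sp7), with a median of 0.62 against -0.05 over all tested probes. With 2 bones per class, the lack of a call does not show equal levels.

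**Figure D5:**
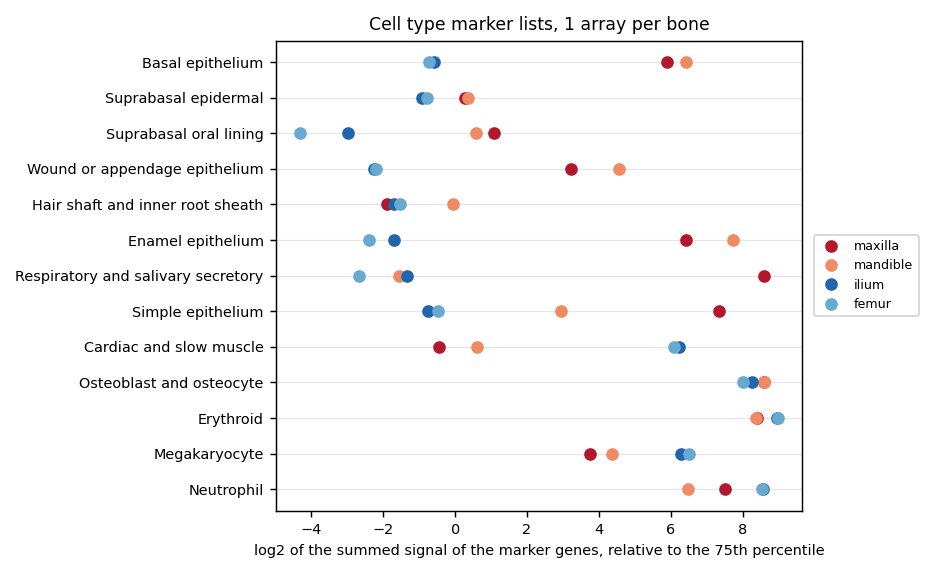
Each row is a list of marker genes and each point 1 array, placed by the log2 of the summed signal of the list relative to the array's 75th percentile, with jaw bones in red tones and trunk and limb bones in blue tones. The sums of basal and enamel epithelium lie far to the right in both jaw bones. The sum of respiratory and salivary secretory genes does so in the maxilla alone, though Scgb1a1 of that list does not. Sums of osteoblast markers lie close together in all 4 bones.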

How the data were processed

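Member probes and gene lists were chosen with earlier results of these data known. Spot intensity was deposited on a linear scale, as written by Agilent Feature Extraction 9.5.3.1 per the file headers, after background subtraction and with surrogate values for spots not above background. A second deposited table gives log2 values, for which the series description names GeneSpring. Its columns equalled log2 ratios to the ilium array plus 1 constant per array, and how the constants were set is not given in the sources used here.

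Each processed signal was put on the log2 scale and the 75th percentile over the 43379 non-control spots of its array was subtracted. Outlier spots were dropped and other spots of a probe averaged. Each member probe has 1 spot. Where the array carries repeat spots, their median SD was 0.0572 to 0.0724 (log2), which is error within an array. Probes were kept apart, and levels were compared between arrays only. Classes were compared in R 4.3.3 with limma 3.58.1 (functions lmFit, eBayes; 2 residual and 1.86 prior degrees of freedom), tested on simulated data. The lowest adjusted p of any probe was 0.0306. All arrays lay on 1 slide with 1 scan time. Every member gene is named. From each further list at most 4 genes are named, called genes with the largest differences first. The values of 1 listed gene are not reported here. Motifs were chosen after the values were seen. Names of list and marker genes came through a RefSeq table of GRCm38.p6. The number of arrays limits the precision.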

Additional observations from a re-analysis of the deposited data

How the results depend on the processing

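The bone was the unit with 2 per class, so a single array weighs heavily. A fit with 1 bone left out has 1 array in that class, and its error comes from the other class alone. Alternatives were another background correction, other scalings, the deposited table, other filters, 1 probe per gene and each bone left out. The count of 9 members called higher became 4 under normexp correction, 3 without the filter on dim probes, 3 of 15 tested when all 4 arrays had to be measurable, and 5 of 24 with 1 probe per gene. Of all tested probes, 4.71%, 1.6%, 5.62% and 4.52% were called higher in the same order, against 4.92% in the main fit. Leaving out 1 bone gave 0 (ilium or femur), 14 (maxilla) and 19 (mandible), and 0 to 2 called lower. Over all tested probes, 14.3% were called higher without the maxilla and 19% without the mandible, against 4.92%. The 15 members separated by size became 7 under normexp, 3 with all 4 arrays measurable and 9 with 1 probe per gene, and 15 to 20 with 1 bone left out, when 0 to 1 were lower. The share of all probes separated was not counted under these settings. Setting bones without measurable signal to the lowest measurable one, chosen after seeing the data, left 13 separated, and 28 higher in maxilla than mandible in place of 30. The list genes called numbered 9 to 12 with all 4 bones in the fit, where 1.6% to 5.62% of all tested probes were called higher. Without the ilium 5585 and without the femur 4118 probes of the array had an unadjusted p below 0.05, although 0 passed adjustment. The members higher in maxilla than mandible fell to 19 at 4-fold, and those lower numbered 1 under normexp and 0 at 4-fold. Between ilium and femur, 0 were higher and 0 lower under either setting. Of the members tested, Sprr1a turned direction by the largest size, at -1.72 without the maxilla, where 1 jaw array remained. Normexp, which adds an offset, made differences of dim probes smaller by construction. Median centring and the deposited table moved the median of all probes to -0.31, against -0.05, and the share of calls that were higher in jaw bones to 26.6% and 27.1%, against 38.4%; quantile normalization gave 30%. The members called higher under them numbered 11, 10 and 7, beside 3.23%, 3.16% and 2.99% of all tested probes. Small differences changed sign: Lce1m was -0.15 under median centring, and Sprr4 was 0.09 under normexp. No paired analysis was possible because the labels carry no numbers that link bones of the 2 classes.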

Other observations

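Beyond the names used to choose the genes, 5 further probes had a deposited description naming 1 of these families, and they were looked up after the other values were seen. Of 3 probes described as filaggrin or similar to it, A_52_P127877 was measurable in maxilla alone, at -4.46, with -8.63 in mandible, against -8.62 in ilium and -8.78 in femur. The other two were not well above background in any bone. A probe described as a small proline-rich gene, A_51_P491758, was measurable in every bone, with -2.44 in maxilla and -2.90 in mandible, against -2.64 in ilium and -2.69 in femur. A probe described as a desmoglein, A_52_P1052138, was not well above background on any array.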
